A study of Homo sapiens with 32 samples.

Results

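MDA-MB-231 is an invasive human breast cancer cell line of the triple-negative type, and the comparison described here sets its total mRNA after hypoxia combined with the mTOR inhibitor PP242 (HPP) against its total mRNA in normoxia (N). It rests on 4 of the 32 libraries of the series, taken by their labels as all MDA-MB-231 libraries of total mRNA from the HPP and N groups, with 2 libraries, labelled as biological replicates, in each group. HPP cells spent 24 h in 0.5% O2 and received 2.5 µM PP242 for 3 h, N cells received neither, and the study's methods state that control cells were given the vehicle, DMSO. PP242 is a small molecule that competes with ATP in the active site of mTOR and so inhibits both mTOR complexes. The other MDA-MB-231 groups used for reference were hypoxia alone (H, 0.5% O2 for 24 h) and PP242 in normoxia (NPP, 2.5 µM for 3 h). The series also holds mRNA from polysome fractions (P) and the same 4 treatments in MCF10A, a non-tumourigenic breast epithelial line. The cells are 1 line in culture, and the libraries were enriched for poly(A) mRNA.

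Hypoxia stabilises the HIF transcription factors, because the prolyl hydroxylases that mark HIF for destruction need oxygen. HIF then switches on genes for glucose uptake, glycolysis, pH control, vessel growth and matrix modification. mTOR is the kinase that couples nutrients and growth factors to growth: mTORC1 drives ribosome production, nucleotide and lipid synthesis and translation, and restrains autophagy and lysosome genes, whereas mTORC2 acts on AKT, which keeps the FOXO transcription factors out of the nucleus. When AKT activity is lost, FOXO factors can activate genes of cell cycle arrest and growth factor sensing.

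The libraries held 27262404 and 18340916 gene counts in N and 37207103 and 31001024 in HPP. The second N library stood apart from the others. It was the shallowest of the 4, yet 17923 protein-coding genes had at least 1 read in it, against 15301 in the first N library and 15352 and 15097 in HPP. Olfactory receptor genes, which breast cells are not known to use, showed this most clearly: 349 of 380 had a read in the second N library, against 50 in the first and 14 and 15 in HPP, and together they reached 92.7 counts per 1000000 (CPM) against 3.44, 2.40 and 2.37. The class was chosen for this look after the values had been seen, and what brought these reads into the library was not tested. The total count and most list calls of HPP against N are therefore given with and without this library where it decides them. The list counts of the other hypoxia-induced genes and of the metallothioneins, and the list tallies of the difference between cell lines, are given with it only.

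**Figure D1:**
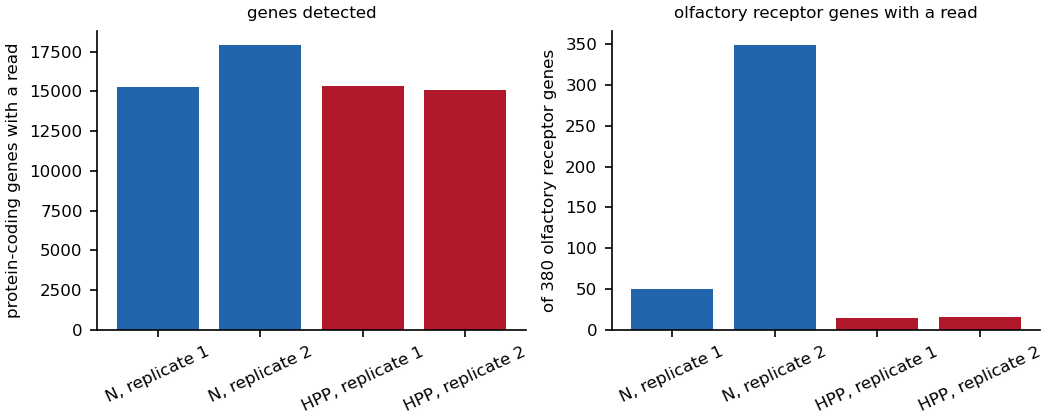
Bars show, for each of the 4 libraries on the x axis, the number of protein-coding genes with at least 1 read (left) and the number of the 380 olfactory receptor genes with at least 1 read (right). The second N library has the tallest bar in both panels, with 17923 genes and 349 olfactory receptor genes.

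Mesenchymal markers of the line were present in all 4 libraries, and so were luminal keratins. VIM, the intermediate filament vimentin, stood at 3151 and 3634 CPM in N and 5291 and 6082 CPM in HPP, and CD44, a hyaluronan receptor, at 540.1 and 544 and 903 and 896 CPM. CDH1, the epithelial adhesion protein E-cadherin, was at 0.359 and 0.568 CPM in N and 0.195 and 0.164 CPM in HPP. The oestrogen receptor gene ESR1 and the basal keratin KRT5 had too few reads to enter the test. The 9 basal epithelial markers listed, of which 6 were tested, summed to 17.5 and 15.97 CPM in N and 16.4 and 13.95 CPM in HPP. Most of this was EPCAM, at a mean of 11.9 CPM over the 4 libraries, so the other markers of the list held little of it. The luminal epithelial markers summed to 891 and 956 CPM in N and 990.3 and 999 CPM in HPP, led by the keratin KRT18 at 349 and 406 and 349 and 351 CPM; of the 6 tested the keratin KRT19 rose, from 143 and 177 to 275 and 295 CPM, and GATA3, a luminal transcription factor, fell, from 12.02 and 8.81 to 5.98 and 5.03 CPM. No luminal marker was called without the first N library and 1 was without either HPP library. The median log2 fold change of the 6 luminal markers tested was -0.48, and KRT19 alone had a value above 0. The part of these markers in the results was not tested. Leukocyte markers summed to 92.3 and 88.7 CPM in N and 108.5 and 101.2 CPM in HPP, most of it the lysosomal protein CD68, and the T cell gene CD3E was not tested for want of reads. Fibroblast markers summed to 15.3 and 13.4 CPM in N and 12.9 and 15.1 CPM in HPP, mostly the collagen COL1A1, and none passed. Endothelial markers summed to 6.24 and 5.74 CPM and 10.8 and 9.34 CPM: KDR, a receptor of vascular growth factors, rose from 4.99 and 3.75 to 8.35 and 7.24 CPM, a call lost without the second N or the first HPP library, while CDH5, the endothelial cadherin, had 0 CPM in both N libraries and 0.028 and 0.066 CPM in HPP.

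Of 19815 protein-coding genes, 13510 had enough reads to be tested, and 13.2% of these differed between HPP and N at an adjusted p under 0.05 in edgeR's quasi-likelihood test, the threshold meant by every statement below that a gene rose or fell. The higher genes made up 6.31% of all genes tested and the lower ones 6.91%, or 853 and 933 genes. Upper-quartile scaling gave 1052 and 719. The shares of 6.31% and 6.91% are the background for the list counts below. From the lower to the upper quartile the rises lay between 0.65 and 1.21 in log2 fold change (log2FC), and the falls between -0.89 and -0.60. At least 2-fold rises numbered 329 and falls of that size 156, and at least 4-fold (a log2FC of 2 or more) 68 and 25. The median log2FC over all genes tested was -0.05, so that the list medians below sit against a background near 0. The median standard error (SE) of a gene past the threshold was 0.179. Between HPP and N 59.9% of all genes tested had libraries that did not overlap, which is what 1785 of the 1786 genes past the threshold also showed. Without the second N library the count of genes past the threshold dropped from 1786 to 538, without the first to 1299, without the first HPP library to 746 and without the second to 585, each of these fits having 1 library in an arm. The balance turned with the library, from 459 rises and 840 falls without the first N library to 430 and 155 without the second HPP library. The fit shares its estimate of the spread with the polysome libraries, which the titles pair with the total mRNA libraries by a shared number, so the 16 libraries are not all independent and p-values may be too small. With the total mRNA libraries fitted alone, 678 genes rose and 491 fell, 8.77% of the genes tested. In that fit the glycolysis genes had 19 of 24 rises, the collagen enzymes 8 of 10, the FOXO genes 9 of 20 and the histone genes 14 of 31, and falls numbered 15 of 40 in DNA replication and 28 of 62 in ribosome biogenesis. Some other lists lost more. In purine and pyrimidine synthesis 4 of 22 genes fell there, against 8 in the main fit, and of 77 mitochondrial ribosomal protein genes 2 fell, against 9. Of 13 integrin genes 2 rose, against 4.

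Among genes with a mean of at least 1 CPM, the largest rise was that of CA9, carbonic anhydrase IX, a membrane enzyme that hydrates carbon dioxide outside the cell and is a classical HIF target. It had 0.574 and 0.0568 CPM in the N libraries and 23.5 and 13.9 CPM in the HPP libraries, a log2FC of 5.67 ± 0.67 (SE; adjusted p = 0.00016). The N values were near the detection limit and differed from each other, and the estimate ranged from 5.01 to 8.27 when 1 library was left out. NDRG1, a stress-responsive gene of the cytoplasm, was the strongest change by p: it had 59.2 and 45.8 CPM in N and 1038 and 918 CPM in HPP (log2FC 4.22 ± 0.21, adjusted p = 6.5e-08). PPFIA4, a liprin scaffold protein, went from 0.753 and 0.625 to 7.23 and 12.2 CPM (log2FC 3.79 ± 0.34), and ANKRD37, an ankyrin-repeat gene that responds to HIF, from 6.42 and 5.68 to 45.1 and 42.3 CPM (log2FC 2.85 ± 0.20). In all 4 genes each HPP library was above each N library, and each gene stayed past the threshold whichever of the 4 libraries was left out. CA9 was the 1 of 7 genes of acid and carbon dioxide handling that passed; the median of that list was -0.027, and CA12, another membrane carbonic anhydrase, had a log2FC of -0.60.

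CCNG2, an atypical cyclin linked to cell cycle arrest and a FOXO target, had 48.8 and 36.7 CPM in N and 369 and 286 CPM in HPP (log2FC 2.94 ± 0.26, adjusted p = 1.6e-05). HIST1H2AC, a histone H2A gene, went from 13.3 and 13.5 to 129 and 145 CPM (log2FC 3.35 ± 0.26). GPR146, an orphan receptor, went from 0.538 and 0.455 to 5.05 and 5.39 CPM and SPNS2, the exporter of sphingosine-1-phosphate, from 1.04 and 1.59 to 7.26 and 11.8 CPM, with log2FC of 3.37 and 2.88. All 4 genes kept their call in each fit with 1 library left out. Among the 12 largest rises 4 further genes did not. HIST2H4B, a histone H4 copy whose reads cannot be told from those of HIST2H4A, was called only without the first HPP library, the clone-named gene RP11-903H12.5, which was at 0 in the second N library, only without the first N library, YPEL1 without the first library of either group, and the keratin-associated gene KRTAP4-8 without any but the first N library. Their values were 0.753 and 0.114 against 6.93 and 18.8 CPM, 0.789 and 0 against 4.47 and 2.83 CPM, 0.359 and 0.284 against 2.12 and 3.29 CPM and 0.359 and 1.08 against 4.78 and 5.23 CPM.

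**Figure D2:**
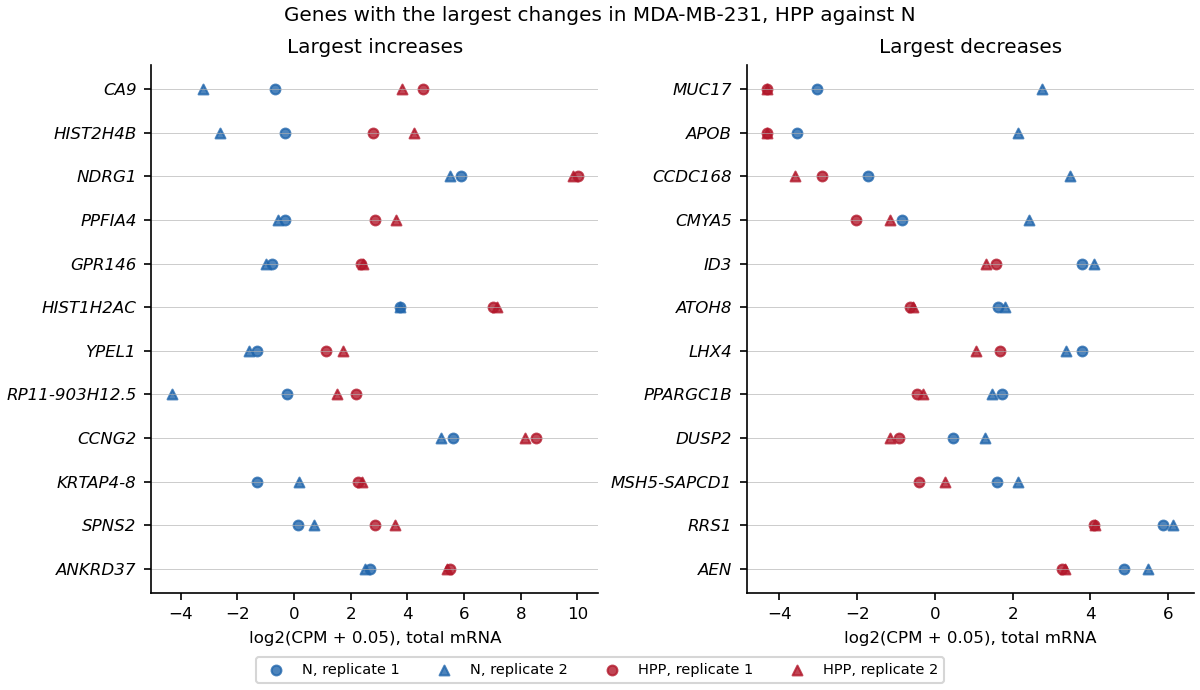
Points give log2(CPM + 0.05) on the x axis for each library of N (blue) and HPP (red), circles for replicate 1 and triangles for replicate 2, of the 12 genes with the largest rise (left) and the 12 with the largest fall (right). Ranked were genes past the threshold with a mean of at least 1 CPM and groups that do not overlap. For MUC17, APOB, CCDC168 and CMYA5 at the top right, only the second N library lies far from the HPP libraries.

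For 5 of the 12 genes with the largest rise, the bases upstream of the RefSeq start that hold a HIF-type core are shown, because HIF acts through this core. The core was searched as ACGTG or GCGTG on either strand (that is, also as CACGT or CACGC). The palindrome CACGTG, which holds ACGTG on both strands, is also the E-box bound by MYC, MAX, MXD, TFE3 and BHLHE40 proteins. The sequences are from RefSeq in GRCh38.p14 and in the gene's direction, end between 1 and 114 bases before the start, and carry the matches in capitals. CA9 lies at chr9:35673885-35673927 (+ strand), PPFIA4 at chr1:203026347-203026436 (+), CCNG2 at chr4:77157152-77157206 (+), KRTAP4-8 at chr17:41098171-41098225 (- strand) and ANKRD37 at chr4:185396654-185396727 (+).
CA9: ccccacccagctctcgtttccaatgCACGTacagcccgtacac
PPFIA4: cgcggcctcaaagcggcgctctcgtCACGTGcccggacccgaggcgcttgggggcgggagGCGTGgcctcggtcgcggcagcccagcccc
CCNG2: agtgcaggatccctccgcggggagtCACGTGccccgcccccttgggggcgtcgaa
KRTAP4-8: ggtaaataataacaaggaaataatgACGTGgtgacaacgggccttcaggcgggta
ANKRD37: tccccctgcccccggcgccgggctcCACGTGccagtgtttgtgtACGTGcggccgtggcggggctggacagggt
Such matches are common and describe the letters only. In windows of 300 bases (250 before the start and 50 after), found for 80.3% of the genes tested, ACGTG occurred in 29.2% of the genes that rose, 29.8% of those that fell and 26.4% of all genes tested, and in 21.6% of all RefSeq promoters. GCGTG occurred in 44.4% of the genes that rose, 59.7% of those that fell and 50.2% of all genes tested, and CACGTG in 11.8%, 14.6% and 9.95%. In the rising genes with a window that also rose in H the 3 shares were 34.6%, 40.4% and 13.5% (36, 42 and 14 genes), and in the 38 that also rose in NPP they were 42.1%, 42.1% and 36.8%; these sets share the N libraries and were not tested against the rest.

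The genes that fell most by fold included 4 that rested on the second N library. MUC17, APOB, CCDC168 and CMYA5, whose mRNAs are very long, had 0.0717 and 6.71, 0.0359 and 4.32, 0.251 and 11.1 and 0.502 and 5.29 CPM in the 2 N libraries and kept their call in 1 of the 4 fits that leave out a library; 8 genes past the threshold had over 5 times more CPM in the second N library than in the first, and these are APOB, TTN, DNAH7, CMYA5, MUC17, CTAGE8, TEX15 and CCDC168. The falls that did not depend on it began with ID3, an inhibitor of basic helix-loop-helix factors and a target of BMP signalling, at 13.7 and 17.1 CPM in N and 2.93 and 2.43 CPM in HPP (log2FC -2.51 ± 0.21, adjusted p = 1.2e-05). LHX4, a LIM-homeobox factor, went from 13.7 and 10.3 to 3.13 and 2.04 CPM (log2FC -2.21 ± 0.30). RRS1, an assembly factor of the large ribosomal subunit, went from 58.7 and 70.3 to 16.9 and 17.3 CPM (log2FC -1.92 ± 0.19) and AEN, an exonuclease of apoptosis, from 28.9 and 44.8 to 9.52 and 10.1 CPM (log2FC -1.90 ± 0.28). CDC25A, the phosphatase that activates CDK2, was among the 10 genes with the smallest p and went from 52.2 and 56.8 to 15.6 and 16.6 CPM (log2FC -1.76 ± 0.15). These 5 genes had HPP libraries below both N libraries and kept their call in each fit with 1 library left out. PPARGC1B, a coactivator of mitochondrial genes, at 3.23 and 2.73 against 0.670 and 0.757 CPM, the helix-loop-helix factor gene ATOH8 at 3.01 and 3.47 against 0.586 and 0.625 CPM and the MAP kinase phosphatase gene DUSP2 at 1.33 and 2.39 against 0.475 and 0.395 CPM fell too, but kept their call in 3, 1 and 2 of those 4 fits. MSH5-SAPCD1, at 2.98 and 4.32 against 0.698 and 1.15 CPM, is a readthrough model whose reads cannot be assigned with certainty, and it kept its call in 1.

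Among abundant mRNAs the changes were smaller. The 10 genes of highest mean CPM past the threshold all rose. LDHA, which makes lactate from pyruvate, went from 1868 and 1785 CPM to 5656 and 4689 CPM (log2FC 1.502 ± 0.19), and PGK1, a glycolytic kinase that makes ATP, from 787.3 and 799.9 to 2505 and 2052 CPM (log2FC 1.52 ± 0.16). VIM rose by a log2FC of 0.75. These 3 and ENO1 kept their call in each fit with 1 library left out; MT2A, a metallothionein, kept it in 2 of 4, and EEF1A1 (log2FC 0.47), GAPDH (0.47), PKM (0.55) and ANKRD1 (1.001), the last a YAP target, in none.

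Glucose uptake and glycolysis rose as a group: 19 of the 24 genes listed rose and none fell, with a median log2FC of 0.87 against -0.05 for all genes tested. The summed level of the list went from 14983 and 15438 CPM in N to 27542 and 25702 CPM in HPP. The steepest members were ALDOC, an aldolase, at 2.33 and 1.19 against 14.7 and 9.08 CPM, and PFKFB4, which sets the level of the phosphofructokinase activator fructose 2,6-bisphosphate, at 4.27 and 5.85 against 27.3 and 32.01 CPM, with log2FC of 2.70 ± 0.43 and 2.56 ± 0.23. PDK1, the kinase that keeps pyruvate out of the mitochondrion, rose from 10.4 and 8.24 to 28.4 and 23.4 CPM (log2FC 1.47). SLC2A3, a neuronal-type glucose transporter, rose by 1.59, SLC16A3, the lactate exporter, by 0.93 and HK1, the first enzyme of the path, by 0.94. SLC2A1, the common glucose transporter, had 632 and 359 CPM in N and 899 and 809 CPM in HPP and missed the threshold (log2FC 0.79, adjusted p = 0.11). With 1 library left out, 15 or 16 of the 19 were called, and 15 were called in all 4 such fits. Of 8 genes of glycogen metabolism 5 rose and none fell, among them PPP1R3C, which brings a phosphatase to glycogen (log2FC 1.46), the branching enzyme GBE1 (1.04) and glycogen synthase GYS1 (0.76); 4 were called without any one library.

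Enzymes that act on collagen had the highest median of the lists of hypoxia genes. Of 10 collagen hydroxylase and lysyl oxidase genes tested, 8 rose and none fell, with a median log2FC of 1.52. P4HA1, the catalytic subunit of prolyl 4-hydroxylase, went from 40.1 and 33.3 to 244 and 204 CPM (log2FC 2.61 ± 0.20) and LOX, which cross-links collagen, from 24.7 and 29.7 to 129.6 and 115 CPM (log2FC 2.17 ± 0.16). PLOD2 and PLOD1, lysyl hydroxylases, rose by log2FC of 1.57 and 1.48. PLOD3 (0.34) and LOXL1 (-0.17) did not pass. P4HA1, LOX, P4HA2, PLOD2, PLOD1 and P4HB were called in all 4 fits with 1 library left out. Of 16 other genes known to respond to hypoxia 12 rose and none fell, with a median of 1.18; besides those above, TMEM45A (log2FC 2.49), the spermatid-type nuclear envelope gene SPAG4 (2.41) and the nuclear receptor RORA (2.36) had log2FC above 2. DDIT4, an inhibitor of mTORC1 that is induced by hypoxia, had 90.7 and 26.7 CPM in N and 147 and 116 CPM in HPP and did not pass (log2FC 1.15, adjusted p = 0.32): its N libraries differed more than 3-fold.

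Regulators of HIF itself moved in opposite directions. Of the 12 tested, the hydroxylase genes EGLN3 and EGLN1, which target HIF for destruction, rose from 5.06 and 5.80 to 16.7 and 11.9 CPM (log2FC 1.40) and from 61.6 and 53.6 to 119.5 and 111.6 CPM (log2FC 1.003), and the repressors BHLHE40 and BHLHE41 rose by log2FC of 1.19 and 1.01. HIF1A, the oxygen-regulated subunit, was the 1 member that fell, from 265 and 204 to 89.2 and 74.6 CPM (log2FC -1.52 ± 0.19, adjusted p = 0.00021). EPAS1, the gene of HIF-2 alpha, had 36.7 and 30.9 CPM in N and 49.3 and 49.1 CPM in HPP (log2FC 0.54, adjusted p = 0.34). EGLN3, EGLN1 and HIF1A were called whichever library was left out; without the second N library 3 of the 5 were called.

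Of 12 secreted factors of vessel growth 11 had a log2FC above 0 (median 0.46), but 1 passed, while 4 had an unadjusted p under 0.05. ANGPTL4, a secreted regulator of lipoprotein lipase and vessel permeability, was the one that passed, at 9.33 and 10.2 CPM in N and 19.1 and 29.97 CPM in HPP (log2FC 1.33 ± 0.25). VEGFA, the main vascular growth factor, had 301 and 259.8 CPM in N and 276 and 318 CPM in HPP (log2FC 0.084 ± 0.15, adjusted p = 0.74), and the libraries of the 2 groups overlapped. ADM, adrenomedullin, was at 66.2 and 53.9 and 91.1 and 67.3 CPM (log2FC 0.40 ± 0.28). Of 9 genes of mitophagy 6 rose, led by the mitochondrial receptors BNIP3, from 151 and 171 to 988 and 850.1 CPM (log2FC 2.51 ± 0.16), and BNIP3L (log2FC 1.44). The ubiquitin kinase PINK1 (0.99), the autophagy receptors SQSTM1 (1.03) and OPTN (0.87) and CALCOCO2 (0.58) were the others, and all but CALCOCO2 kept the call in each fit with 1 library left out. Of 14 histone demethylase genes 4 rose, KDM3A from 44.8 and 36.04 to 168 and 133 CPM (log2FC 1.89), KDM6B (1.27), KDM5B (1.196) and KDM4B (0.995); KDM3A and KDM5B were called in all 4 such fits, and 2 genes of the list were called without the second library of either group.

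**Figure D3:**
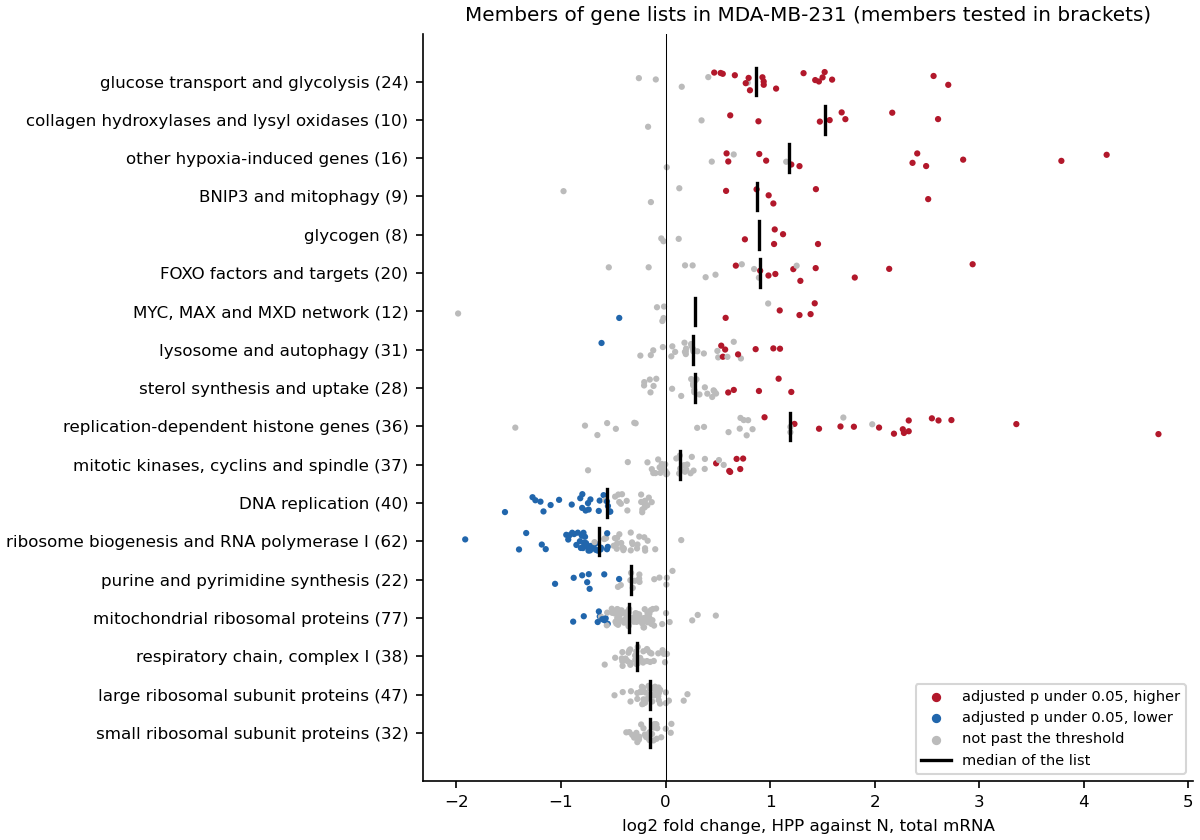
Each point is the log2FC (x axis) of a tested member of the list named on the y axis, red where it rose, blue where it fell and grey where it did not pass the threshold, and the black bar is the list's median. Hypoxia, FOXO and histone lists lie to the right with medians up to 1.52, DNA replication and ribosome biogenesis to the left with medians of -0.56 and -0.63, and ribosomal protein and complex I genes hold no coloured point.

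FOXO factors and their targets rose in part. Of 20 tested 10 rose and none fell (median log2FC 0.90). Next to CCNG2 stood KLHL24, a kelch-like adaptor, at 14.9 and 4.49 CPM in N and 48.0 and 39.5 CPM in HPP (log2FC 2.14 ± 0.42); it kept its call without any one library, but its log2FC ranged from 1.55 to 3.29. SESN3, a sestrin that restrains mTORC1, rose from 5.45 and 5.002 to 18.2 and 18.6 CPM (log2FC 1.81), TXNIP, an inhibitor of glucose uptake, from 196 and 166 to 479 and 501 CPM (1.44), and PIK3IP1, an inhibitor of PI3-kinase, by 1.22. The FOXO genes themselves did not pass: FOXO3 had a log2FC of 0.73, FOXO4 of 0.89 and FOXO1 of 0.38. Without the second N or the first HPP library 6 of the 10 kept the call and without either other one 7; CCNG2, KLHL24, SESN3, TXNIP and YPEL5 were called in each fit. Of 14 receptor tyrosine kinase and IRS genes, a group that can rise when AKT is inhibited, MET alone rose (log2FC 0.72), a share near the 6.31% of all genes tested. MET lost the call without any one library, while IRS2 (0.84) and EGFR (0.65) did not pass.

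Of 22 genes around mTOR 3 rose and none fell: FLCN (folliculin) rose from 33.2 and 41.9 to 78.8 and 84.8 CPM (log2FC 1.12 ± 0.20), its partner FNIP1 from 33.4 and 33.8 to 67.9 and 56.9 CPM (0.89 ± 0.16) and RRAGC, a Rag GTPase on which they act at the lysosome, from 46.9 and 57.5 to 104.8 and 90.9 CPM (0.91 ± 0.16). All 3 were called in each fit with 1 library left out. FNIP2 (0.18) and the other Rag genes RRAGA (0.38), RRAGB (-0.16) and RRAGD (-0.022) did not pass, nor did MTOR itself (-0.28), RPTOR (0.49) and RICTOR (0.19). Of 31 lysosome and autophagy genes 7 rose and 1 fell (median 0.26): GABARAPL1, an autophagosome protein, rose by 1.09, NEU1, a sialidase, by 0.86, CTSD and CTSB, cathepsins, by 0.69 and 0.57, and ATG16L1, of the conjugation machinery, fell (-0.61). The list is sensitive to single libraries, with 2 of the 8 called without the second N library and 5 without any other, SQSTM1 and NEU1 among them each time.

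Of 12 genes of the MYC network 5 rose and 1 fell. MNT, MXD3, MXI1 and MXD4, which compete with MYC for its partner MAX, had log2FC of 1.43, 1.39, 1.28 and 1.09 and kept their calls in all 4 fits with 1 library left out. MNT went from 11.9 and 11.1 to 26.8 and 35.4 CPM and MXD3 from 28.1 and 27.6 to 66.1 and 79.5 CPM. MYC itself rose by 0.57 and MLX fell (-0.44), both without that stability, and MXD1 (-0.014) and MAX (-0.019) did not pass. PIM1, a kinase that acts with MYC in cell survival, was the second gene of the comparison by p, at 24.3 and 21.9 CPM in N and 127 and 152 CPM in HPP (log2FC 2.59 ± 0.14, adjusted p = 1.3e-07). Of 28 sterol genes 5 rose and none fell, among them INSIG1 (log2FC 0.65) and INSIG2, which hold back sterol synthesis, and MSMO1 (0.89), a sterol oxidase; 1 was called without the second N or the first HPP library, 2 without the first N and 3 without the second HPP library. Of 15 fatty acid genes none rose and 2 fell, GPAM (-0.996) and ELOVL6 (-0.74), and neither held in all 4 fits (1, 1, 1 and 0 of the 2 called).

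Replication-dependent histone mRNAs normally end in a stem-loop in place of a poly(A) tail, so that poly(A)-enriched libraries see only part of them. Of 71 listed 36 had enough reads to be tested, 16 of these rose and none fell, with a median log2FC of 1.19. HIST1H2BC and HIST1H2BD (H2B) went from 0.897 and 1.65 to 7.01 and 8.06 CPM and from 6.03 and 7.11 to 39.99 and 36.4 CPM, with log2FC of 2.61 and 2.55. HIST1H1C, a linker histone, went from 24.6 and 27.9 to 82.2 and 100.3 CPM (1.80) and HIST1H4H, of the H4 class, from 2.87 and 2.44 to 11.9 and 12.47 CPM (2.18). Near-identical copies, such as HIST2H2AA3 and HIST2H2AA4 or HIST2H4A and HIST2H4B, share reads and are uncertain. HIST2H4A counts among the 16 that rose. Of the 16, 12 were called without either N library, 13 without the first HPP library and 11 without the second, and 11 in all 4 fits.

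All 40 DNA replication genes tested had a log2FC below 0, 22 of them fell past the threshold and none rose (median -0.56). MCM10, an initiation factor, went from 82.5 and 84.6 to 30.8 and 26.8 CPM (log2FC -1.54 ± 0.15) and CDC6, which loads the MCM helicase, from 185 and 228 to 88.0 and 83.2 CPM (-1.27 ± 0.16). ORC1, of the origin recognition complex, fell (-1.17), as did POLE2, a subunit of polymerase epsilon (-1.20), the checkpoint adaptor CLSPN (-1.10) and the helicase subunits MCM3 (-0.76), MCM5 (-0.64) and MCM6 (-0.63). The count was 18 without the first N library, 9 without the second, 10 without the first HPP library and 8 without the second, while the median stayed between -0.60 and -0.45. MCM3, GINS1, CLSPN, ORC1, POLE2, CDC6 and MCM10 were called in each. These are levels in bulk RNA, in which fewer cells of a stage or type and less mRNA per cell cannot be told apart.

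Of 23 G1 cyclins, CDKs, inhibitors and E2F genes tested 4 rose and 6 fell. CDKN1C, the CDK inhibitor p57, rose from 2.01 and 1.25 to 9.91 and 9.11 CPM (log2FC 2.51 ± 0.27), and CDKN2D, CDKN1A and CDKN1B, the inhibitors p19, p21 and p27, rose by 1.03, 0.88 and 0.67. CDC25A, SKP2, the ligase subunit that degrades p27 (log2FC -1.41), cyclin E2 (CCNE2, -1.16) and the factors E2F2 (-1.01) and E2F3 (-0.54) fell, and so did RBL1 (-0.66), a pocket protein that restrains E2F. CCND1, cyclin D1, had 523 and 534 CPM in N and 375 and 417 CPM in HPP and did not pass (-0.42). CDKN1C, CDKN2D, CCNE2, SKP2 and CDC25A were called in all 4 fits with 1 library left out; without the first HPP library 5 of the 10 were. Of 37 mitotic kinases, cyclins and spindle genes 6 rose, among them the kinetochore genes CENPF (log2FC 0.68) and CENPE (0.62), and none fell. None of the 6 was called in all 4 fits, with 1, 0, 1 and 4 called without the first and second N and the first and second HPP library. BBC3, the p53 and FOXO target that encodes the cell death protein PUMA, rose from 2.51 and 3.87 to 10.4 and 11.1 CPM (1.77); MDA-MB-231 carries mutant p53, and of 16 p53 targets 3 rose and 1 fell, MDM2 being at -0.24. Of these 4, 2 kept the call without the first library of either group and 3 without the second, and BBC3 and BTG1 did in all 4 fits.

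Many mRNAs of ribosome assembly factors fell. Of 62 genes of ribosome biogenesis and RNA polymerase I, 61 had a log2FC below 0, 35 fell past the threshold and none rose (median -0.63). Besides RRS1, LTV1, an export factor of the small subunit, went from 70.2 and 71.6 to 27.1 and 26.5 CPM (log2FC -1.40 ± 0.19) and NOP2, an rRNA methyltransferase, from 88.4 and 91.5 to 38.7 and 32.7 CPM (-1.33 ± 0.14). The box C/D proteins NOP56 (-0.89) and NOP58 (-0.80), the pseudouridine synthase DKC1 (-0.84) and the polymerase subunits POLR1B (-0.70) and POLR1E (-0.81) fell by smaller amounts. The number called was 29 without the first N library, 13 without the second, 15 without the first HPP library and 13 without the second, with medians from -0.64 to -0.54, and DKC1, NOP56, NIP7, WDR43, UTP15, PPRC1, NOP2, LTV1 and RRS1 were called each time. Ribosomal protein genes did not pass in total mRNA: edgeR called none of 47 large-subunit and none of 32 small-subunit genes, 1 and 0 had an unadjusted p under 0.05 and DESeq2 called none, with medians of -0.14 and -0.15. In polysome fractions the same comparison gave medians of -1.90 and -2.05 for the same genes. Of 77 mitochondrial ribosomal protein genes 9 fell and none rose (median -0.35); without the second library of either group none was called, without the first N library 5 and without the first HPP library 1.

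Of 22 purine and pyrimidine synthesis genes 8 fell and none rose. CTPS1, which makes CTP, went from 184 and 174 to 84.2 and 88.2 CPM (log2FC -1.06 ± 0.13), and UMPS and DHODH, of the pyrimidine path, and PPAT and PFAS, the first and a later step of purine synthesis, had log2FC of -0.88, -0.80, -0.73 and -0.75. CTPS1 alone was called in all 4 fits; 4 were called without the first HPP or either N library and 2 without the second HPP library. CAD, an enzyme regulated downstream of mTORC1 that starts pyrimidine synthesis, was at 111.5 and 100.3 CPM in N and 68.9 and 99.7 CPM in HPP (-0.33). Of 37 translation factor genes 3 rose and 1 fell, no larger a share than the 13.2% of all genes tested that passed. PDCD4, an inhibitor of the helicase eIF4A, rose from 59.8 and 42.7 to 132 and 112.2 CPM (1.25), and EIF4B (0.82) and EEF1A1 rose. EIF4E, the cap-binding protein, fell from 165 and 166 to 122 and 98.98 CPM (-0.58 ± 0.15). PDCD4 and EIF4B were called without any one library, and 2, 2, 3 and 2 of the 4 without the first and second N and the first and second HPP library.

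Hardly any respiratory chain mRNA passed. None of 38 complex I genes passed in edgeR (median -0.27; 4 at an unadjusted p under 0.05, 1 by DESeq2), 1 of 39 genes of complexes II to V fell (ATP5G1, -0.71, not called once any one library was left out), and none of the 13 mitochondrially encoded mRNAs passed (median 0.21; 0 at an unadjusted p under 0.05 and 0 by DESeq2). None of 6 IGF-binding protein genes passed (0 and 0), and of 10 iron genes 1 fell, the transporter SLC11A2 (-0.58), with the call lost on leaving out any one library. Of 22 chaperone and unfolded protein response genes 3 rose, PPP1R15A, which ends the stress block on translation, by 1.54, ERN1 by 0.75 and HERPUD1 by 0.62, and HSPA5, the main ER chaperone, was at 0.30; 1 to 2 of these were called with 1 library left out. Of 34 genes of the amino acid response and tRNA synthetases 3 rose, ATF3 (1.01), VLDLR (0.95) and SLC1A4 (0.79), and VLDLR alone was called in each such fit. Over all genes tested 6.31% rose, so that 3 of 34 is near the background. Of 7 metallothionein genes MT1X (1.13) and MT2A rose.

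Genes of adhesion, matrix and signalling gave smaller sets. Of 13 integrin genes 4 rose and none fell: ITGB4 from 21.6 and 14.7 to 49.3 and 55.9 CPM (log2FC 1.53 ± 0.42), ITGA2 (0.83), ITGA5 (0.80) and ITGA6 (0.62). None of the 4 was called without the second N library or without either HPP library, and 3 were without the first N library. ITGB3, the beta subunit of the vitronectin receptor, had 2.33 and 1.93 CPM in N and 3.10 and 3.49 CPM in HPP and did not pass (log2FC 0.62 ± 0.33, adjusted p = 0.23). Of 15 matrix protease genes PLAT, the tissue plasminogen activator (2.37), MMP1, a collagenase (1.36), SERPINE2 (1.17) and MMP15 (1.11) rose, MMP1 going from 242 and 297 to 746 and 640.3 CPM; MMP1 was called in all 4 fits, and 2, 1, 3 and 2 of the 4 in the fits without the first and second N and the first and second HPP library. Of 13 regulators of epithelial and mesenchymal state FN1, fibronectin (1.29), CLDN4 (1.04) and VIM rose, while ZEB1 (0.26) and SNAI2 (-0.34) did not pass; without the second N library 2 of the 3 were called.

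In BMP and TGF-beta signalling ID3 fell together with ID1, from 23.9 and 12.8 to 8.99 and 6.68 CPM (log2FC -1.24), and SKIL (-0.52), and the BMP antagonist NOG (1.05), TGFB1 (0.70) and TGFBI (0.71) rose; ID2 (0.68) did not pass. ID3 and NOG were called in each fit with 1 library left out, and 3 of the 6 without either HPP library. The Notch ligands JAG2 (1.67) and DLL4 (1.61) rose among 16 Notch genes, with JAG2 called in each fit and DLL4 only without the second HPP library. Of 18 clock genes RORA, RORB (1.06), DBP (1.16) and NR1D1 (0.74) rose and PER2 (-1.0) and PER3 (-1.02) fell, but only RORA was called in each fit, and 2, 1, 2 and 3 of the 6 were called without the first and second N and the first and second HPP library. Among 30 immediate early and ERK feedback genes EGR3, KLF6, ATF3, KLF10 and MYC rose, KLF6 from 113 and 111.6 to 379 and 366 CPM (1.73) and in every fit; 2, 1, 3 and 4 of the 5 kept the call without the first and second N and the first and second HPP library. DUSP1, a stress-induced phosphatase gene, had N libraries far apart, at 86.6 and 29.7 CPM, and 202 and 235 CPM in HPP (log2FC 1.90, adjusted p = 0.055). Of 18 cytokine genes IL24 (2.03), CSF2 (1.28) and TNFAIP3 (0.70) rose, and 2 of them kept the call without the first N library, none without the second and 1 without either HPP library.

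The design also asks what each exposure adds to the other. HPP was compared with H directly, which isolates PP242 under hypoxia, and with NPP, which isolates hypoxia under PP242; both share the HPP libraries with the comparison against N, so the sets are read through their own values. Against H 3.78% of the 13510 genes differed, 1.7% higher and 2.08% lower in HPP, and against NPP 2.72%, 1.62% higher and 1.1% lower. With the total mRNA libraries fitted alone these were 0.900% against H and 1.08% against NPP. They also moved with single libraries: against H 1.09% passed without the first HPP library, 0.167% without the second, 5.53% without the first H library and 0.349% without the second, and against NPP 0.475%, 0.670%, 0.440% and 0.719% without the first and second HPP and the first and second NPP library. Of the named and listed genes, 12 of 95 past the threshold against H and 27 of 96 against NPP kept the call in all 4 such fits. The split depended on scaling, being 230 higher and 281 lower against H (316 and 211 with upper-quartile scaling) and 219 and 148 against NPP (244 of 349 genes higher). Of the glycolysis genes 16 of 24 were higher in HPP than in NPP and edgeR called none against H (3 at an unadjusted p under 0.05), of the collagen enzymes 7 of 10 and none (3 at an unadjusted p under 0.05), and of the other hypoxia genes 11 of 16 and 1 of 16. In all 4 fits with 1 library left out, 8 glycolysis genes, 4 collagen enzymes and 6 other hypoxia genes kept the difference from NPP. The list medians against N were 0.80, 1.13 and 0.90 in H and 0.058, 0.14 and 0.28 in NPP. CA9 had 19.2 and 13.0 CPM in H, 0.719 and 0.215 CPM in NPP and 23.5 and 13.9 CPM in HPP (HPP against H 0.21 ± 0.45, adjusted p = 0.86; against NPP 5.30 ± 0.61, adjusted p = 0.00031).

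Of the 20 FOXO genes 6 were higher in HPP than in H and 2 than in NPP, and the median against N was 0.16 in H and 0.51 in NPP. KLHL24 had 9.94 and 7.11 CPM in H, 52.1 and 37.7 CPM in NPP and 48.0 and 39.5 CPM in HPP, and its difference from H was 2.35 ± 0.42 (adjusted p = 0.0099). FLCN, FNIP1 and RRAGC were each higher in HPP than in H, by log2 differences of 1.07, 1.19 and 0.75, as were MNT (1.11), MXD3 (1.48) and BBC3 (1.57). The largest differences from H among genes of at least 1 CPM were, upward, FAM156B (4.65), a near copy of FAM156A whose reads are uncertain, YPEL1 (3.15), KLHL24, CREBRF, a regulator of the stress factor CREB3 (2.27), and PIM1 (2.26); downward they were ID3 (-2.33), the readthrough models MINOS1-NBL1 and NDUFC2-KCTD14, RRS1 (-1.88) and AEN (-1.82). ID3 had 11.6 and 15.4 CPM in H, 1.73 and 1.62 CPM in NPP and 2.93 and 2.43 CPM in HPP, so that NPP lay below HPP in these libraries (HPP against NPP 0.68 ± 0.23, adjusted p = 0.13). Against NPP the largest differences upward were CA9, the clone-named RP11-500M8.7 (4.42), NDRG1 (3.47), PPFIA4 (3.39) and ANGPTL4 (2.73), and downward MSH5-SAPCD1, LHX4 (-1.86), ZBTB40 (-1.57), CCDC150 (-1.56) and the Golgi-related copy GOLGA8B (-1.48). Of the genes given here, FNIP1, FAM156B, CREBRF, PIM1, ID3 and RRS1 kept the difference from H whichever of the 4 libraries was left out, and CA9, NDRG1, PPFIA4 and ANGPTL4 that from NPP. KLHL24, RRAGC, YPEL1 and NDUFC2-KCTD14 kept that from H in 1 of the 4 fits, FLCN, MNT, BBC3 and MINOS1-NBL1 in 2, and MXD3 and AEN in 3. That from NPP was kept by ZBTB40 in 3, LHX4 in 2, CCDC150 and GOLGA8B in 1 and RP11-500M8.7 and MSH5-SAPCD1 in none. Of the 6 FOXO genes higher than in H, 3, 2, 6 and 1 kept the call without the first and second HPP and the first and second H library, and of the 2 higher than in NPP none did in any fit.

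**Figure D4:**
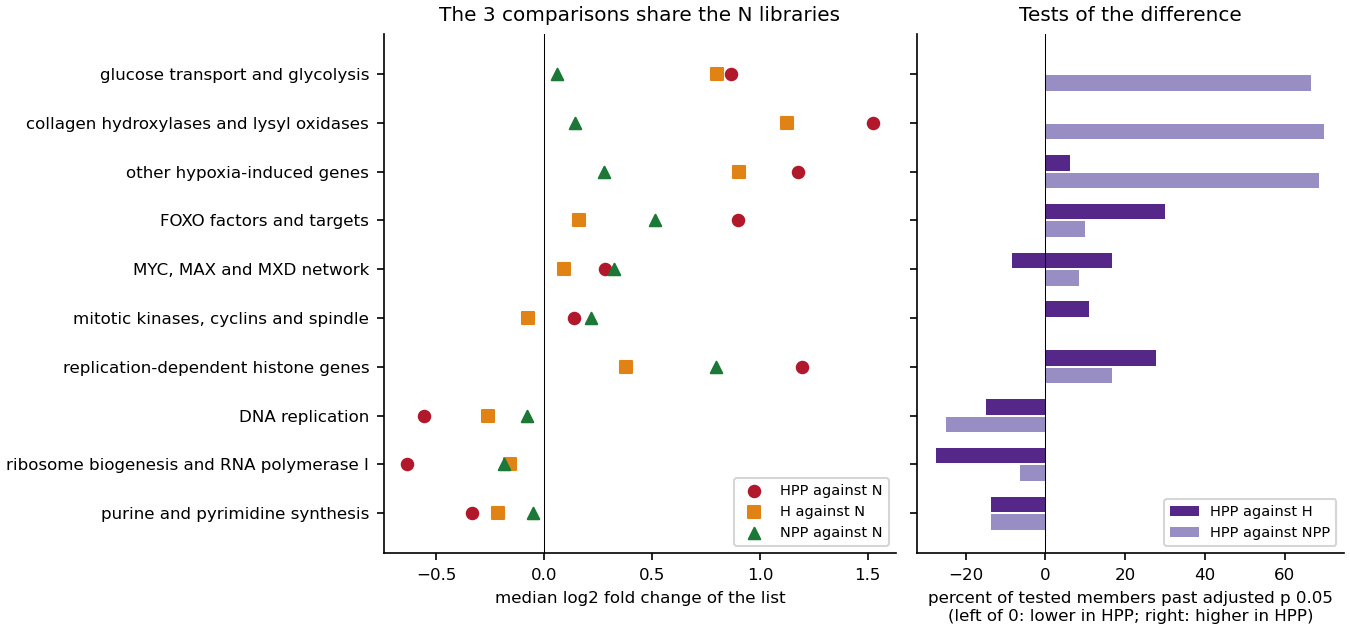
The left panel gives, for the list named on the y axis, the median log2FC against N (x axis) in HPP (red circles), H (orange squares) and NPP (green triangles). The right panel gives the percent of tested members that differ between HPP and H (dark) or HPP and NPP (light), higher in HPP to the right of 0 and lower to the left; glycolysis has 16 of 24 members above NPP and none apart from H.

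Some HIF-responsive genes were lower in HPP than in H. EGLN3 had 27.3 and 27.5 CPM in H, 3.11 and 3.56 CPM in NPP, 5.06 and 5.80 CPM in N and 16.7 and 11.9 CPM in HPP, and was lower in HPP than in H (-0.94 ± 0.19, adjusted p = 0.018) while higher than in N and NPP. ANGPTL4 had 52.4 and 65.8 CPM in H, 3.80 and 3.59 CPM in NPP and the N and HPP values given above, with a difference from H of -1.27 ± 0.24 (adjusted p = 0.012). EDN1, the vasoconstrictor endothelin, had 85.5 and 108.3 CPM in H and 59.2 and 56.8 CPM in HPP (-0.74, adjusted p = 0.0099). JMJD6, which did not pass against N and is not counted here as HIF-responsive, was lower in HPP than in H as well (-1.31, adjusted p = 0.029 in edgeR). With 1 of the 4 libraries left out, EGLN3 and ANGPTL4 kept the difference from H in 2 fits and EDN1 and JMJD6 in 1.

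Some genes differed from both single exposures. Of the 36 histone genes 10 were higher in HPP than in H and 6 higher than in NPP, with medians against N of 0.38 in H, 0.80 in NPP and 1.19 in HPP. HIST1H2AC had 35.8 and 24.9 CPM in H and 49.2 and 43.9 CPM in NPP, below 129 and 145 CPM in HPP (differences 2.17 and 1.55). CDKN1C had 4.89 and 3.74 CPM in H and 4.17 and 4.41 CPM in NPP, below 9.91 and 9.11 CPM in HPP (differences 1.13 and 1.15, adjusted p = 0.022 and 0.024). Ribosome biogenesis genes were lower in HPP than in H in 17 of 62 cases and lower than in NPP in 4, with medians of -0.16 in H and -0.19 in NPP against -0.63 in HPP. DNA replication genes were lower than in H in 6 of 40 and lower than in NPP in 10, and MCM10 had 68.8 and 65.4 CPM in H, 57.3 and 49.7 CPM in NPP and 30.8 and 26.8 CPM in HPP. CTPS1, at 120.0 and 142 and 140.4 and 138 CPM in H and NPP against 84.2 and 88.2 CPM in HPP, differed from both (-0.60 and -0.69). HIST1H2AC kept its differences from H and NPP in 4 and 3 of the 4 fits with 1 library left out and MCM10 in 3 and 2, while CDKN1C and CTPS1 each kept that from H in 1 and that from NPP in none. Against H 3 histone, 2 ribosome biogenesis and 0 DNA replication genes kept the difference in all 4 fits, and against NPP 0 of each.

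A departure from additivity, the HPP effect minus the sum of the H and NPP effects on the log2 scale, was found in 0.0074% of genes. All of it was 1 gene with a smaller value in HPP (0.0074% lower and 0% higher), and DESeq2 gave 2 genes. Of the 13510 genes 133 had an unadjusted p under 0.05 in edgeR, a smaller share than evenly spread p-values would give. The p-values of this test therefore ran large, and the few calls do not show that the 2 effects add up. The gene was the readthrough model NDUFC2-KCTD14, at 0 in both N libraries, 2.47 and 2.96 CPM in H, 1.06 and 2.02 CPM in NPP and 0.698 and 0.658 CPM in HPP. Its reads are shared with its component genes, so its level is uncertain. Among the genes above the departure was -0.21 ± 0.34 for CCNG2, -0.58 ± 0.21 for MCM10, -0.55 ± 0.25 for RRS1 and 0.37 ± 0.34 for HIST1H2AC. None of these passed the adjusted threshold.

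The same treatment in MCF10A allowed a test of whether the response to HPP differed between the lines, from a joint fit of all libraries. By the study's methods the MCF10A medium also held EGF, insulin, hydrocortisone and cholera toxin, which the MDA-MB-231 medium did not. Line and medium therefore cannot be told apart in this test. The difference was past the threshold in 3.31% of 14298 genes, with the MDA-MB-231 value above the MCF10A value in 2.04% and below it in 1.27%, or 291 and 182 genes. Scaling moved this split, to 211 and 217 with RLE and 229 and 214 with upper quartiles, as the median difference over all genes went from 0.046 to -0.092 and -0.057. DESeq2, whose test differs as well, gave 367 and 380. For most of the list members concerned the log2FC had the same sign in both lines and was smaller in size in MDA-MB-231. ID3 stood at 214 and 280.4 CPM in MCF10A N and 9.61 and 12.4 CPM in HPP (log2FC -4.49), and differed from the MDA-MB-231 change by 2.06 ± 0.43 (adjusted p = 0.010). RRS1 (1.59), LTV1 (1.51), NOP2 (0.98), MCM10 (1.59), CDC6 (0.92), CDC25A (1.52) and CTPS1 (1.55) likewise fell less in MDA-MB-231. TXNIP (-2.94), EGLN3 (-2.18), HIST1H4H (-2.98), SLC2A3 (-1.88) and ENO2 (-1.39) rose less. In 950 list members tested in both lines with reads in every group the difference passed in 54; of these, 41 had a log2FC of the same sign in both lines and smaller in size in MDA-MB-231, 0 one of the same sign and larger there and 13 log2FC of opposite sign, whether or not the gene passed within a line. These counts rest on TMM scaling.

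**Figure D5:**
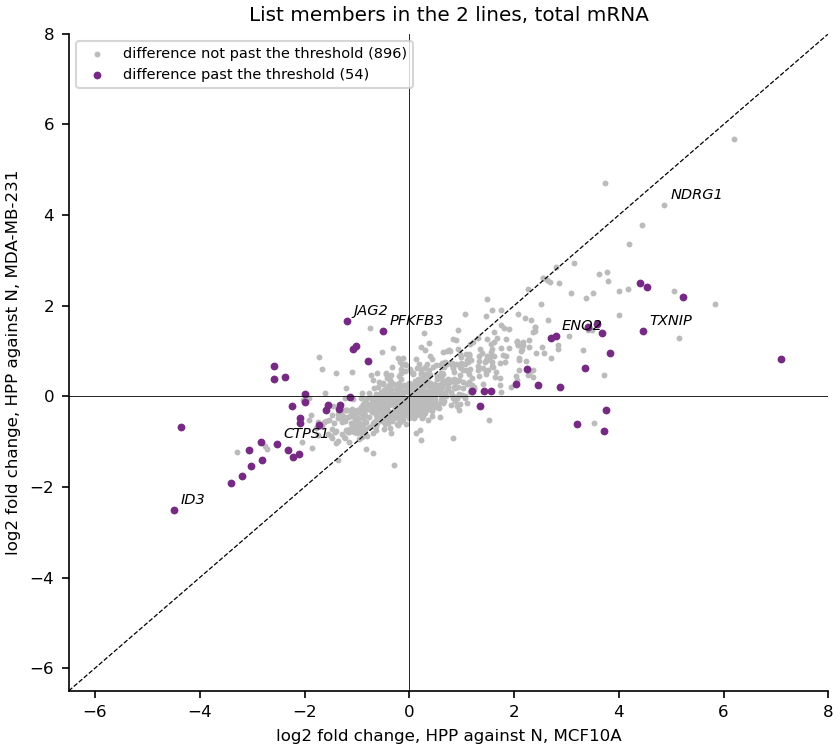
Each point is a gene of the lists, with its log2FC for HPP against N in MCF10A on the x axis and in MDA-MB-231 on the y axis, purple where the 2 values differ past the threshold and grey where they do not; the dashed line marks equal change. Of the 54 purple points 41 lie between the dashed line and the horizontal axis.

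Some genes had log2FC of opposite sign. PFKFB3, the inducible partner of PFKFB4, had 28.1 and 31.7 CPM in N and 80.0 and 81.1 CPM in HPP in MDA-MB-231 and 30.5 and 41.2 CPM and 26.7 and 23.8 CPM in MCF10A (log2FC 1.43 and -0.50, difference 2.03 ± 0.48, adjusted p = 0.021). JAG2 rose in MDA-MB-231 and had a log2FC of -1.19 in MCF10A (difference 2.96). ANKRD1 rose in MDA-MB-231 (1.001) and fell in MCF10A (-1.36, difference 2.47), though its call in MDA-MB-231 was lost on leaving out any one library. BEND3, which represses transcription through a BEN domain, had 9.94 and 8.53 and 11.6 and 14.6 CPM in MDA-MB-231 and 4.86 and 7.38 and 0.494 and 0.436 CPM in MCF10A (difference 4.30). SMAD6, the inhibitor of BMP signalling, was lower in HPP in both lines, with 10.7 and 7.16 and 5.72 and 5.49 CPM and 13.3 and 15.9 and 0.649 and 0.772 CPM (difference 3.76). Leaving out 1 library of either line moved the count of genes that differ between the lines from 473 to between 160 and 407.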

How the data were processed

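Total mRNA from MDA-MB-231 cells was sequenced, per the study's methods, from poly(A)-enriched TruSeq libraries as paired reads; the kit does not keep strand, so overlapping genes on opposite strands cannot be told apart. The deposited table holds expected counts per gene that the authors made with STAR and RSEM; the submitters' notes name GRCh37 and the study's methods a later build, and no coordinate of the table was used. The expected counts were whole as deposited. Counts of 19815 protein-coding genes (60554 genes in all) were normalised by TMM and tested with edgeR 4.0.16 (limma 3.58.1, R 4.3.3): quasi-likelihood F-tests with Benjamini-Hochberg adjustment, fitted over the 16 MDA-MB-231 libraries of total and polysome mRNA (8 groups of 2), which share 1 estimate of the spread (8 residual degrees of freedom), with 1 mean per group and no term for the total and polysome libraries that share a number in their titles. The difference between lines used all 32 libraries. Genes passed edgeR's default expression filter. CPM are library-scaled and not corrected for length, so rankings by CPM and the parts of a summed CPM also reflect the lengths of the mRNAs. H, NPP and HPP share the N libraries. Depth ranged from 18340916 to 37207103 counts in the 4 libraries.

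The genes named were the 12 largest rises and falls past the threshold with a mean of at least 1 CPM and groups that do not overlap, the 10 with the smallest p, the 10 of highest CPM, list members, and the 5 largest differences in each direction of each other test. The comparison, lists and tests were chosen with earlier results of these data known. Alternatives were DESeq2 1.42.0, other scalings, filters, thresholds and sets of libraries, a replicate block and leaving out each library, where a lone library is assumed to vary like the other groups. On data simulated for HPP against N (13342 genes tested), 73% of genes changed by a log2FC of 1 and 98% of those changed by 2 were recovered, with 12 of 183 calls false. The simulation drew independent counts with the spread that the fit itself had estimated, and changed 200 genes of at least 1 CPM. It held no library like the second N library and no link between total and polysome libraries. The rates may therefore be better than those in the real data. Promoters of 10844 tested genes were matched by symbol to RefSeq (GRCh38.p14). No column lacked a sample (0). Some genes that the rule would name are not reported here.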

Additional observations from a re-analysis of the deposited data

Results flagged for a closer look

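The response to HPP differed between MDA-MB-231 and MCF10A, by the interaction term of the joint edgeR fit, in the following genes named above or by the rule for the largest differences; the values are the MDA-MB-231 log2FC minus the MCF10A log2FC. The log2FC was below 0 in both lines and smaller in size in MDA-MB-231 for AEN (2.01), CDC25A (1.52), CDC6 (0.92), CTPS1 (1.55), E2F2 (1.92), EIF4E (1.601), ID3 (2.06), LTV1 (1.51), MCM10 (1.59), MCM6 (1.18), NOP2 (0.98), POLE2 (1.22), PPRC1 (1.98), RRS1 (1.59) and SMAD6 (3.76). It was above 0 in both lines and smaller in MDA-MB-231 for EGLN3 (-2.18), ENO2 (-1.39), HIST1H4H (-2.98), HIST2H2AA4 (-6.26), MXI1 (-1.32), PPP1R15A (-1.78), SLC2A3 (-1.88), SPAG4 (-2.06), TMEM45A (-1.82), TXNIP (-2.94) and VLDLR (-2.78). Its sign differed between the lines for ANKRD1 (2.47), BEND3 (4.30), CA12 (-3.71), ID2 (3.33), JAG2 (2.96), LCP1 (-5.91), MMP15 (2.21), NOG (2.22), PFKFB3 (2.03) and SLC1A4 (1.66). SPNS2, not tested within MCF10A for want of reads, differed by 3.34. For genes with a group at 0 in both libraries no fold change is given: the adjusted p was 0.0031 for ADAMTS15 (MCF10A HPP), 0.023 for FAM124A (MCF10A HPP), 0.0013 for HTRA3 (MCF10A HPP), 0.0025 for NDNF (MCF10A N), 0.022 for NDUFC2-KCTD14 (MDA-MB-231 N; MCF10A HPP), 0.017 for OLFML3 (MCF10A N) and 0.012 for SERPINB2 (MCF10A N). HIST2H2AA4 shares its reads with HIST2H2AA3 and is uncertain.

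The departure from additivity of NDUFC2-KCTD14 (adjusted p = 0.00038) came from a gene at 0 in both N libraries, and so has no fold change. No group held more than 2 libraries, too few for a test of 1 value that stands apart within its group.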

How the results depend on the processing

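Of the listed and named genes past the threshold against N, none changed the sign of its log2FC under an alternative, nor did any list median of at least 0.3 in size with a member past the threshold. Values below are percentages of the genes tested that passed, for HPP against N, against H and against NPP, the departure from additivity and the difference between lines in that order. They were 13.2, 3.78, 2.72, 0.0074 and 3.31% as reported, and 20.5, 7.20, 5.00, 0.0148 and 5.47% at an adjusted p under 0.10. With a log2FC of at least 1 in size as well, the first 3 were 3.59, 0.992 and 1.02%. The total mRNA libraries fitted alone gave 8.77, 0.900, 1.08, 0.015 and 1.19%, and the 4 libraries of the comparison alone 1.12% against H. DESeq2 gave 7.18, 5.12, 0.0148 and 5.22% for the last 4. With no filter beyond 1 read, H, NPP and additivity had 4.51, 3.66 and 0.0832%. Leaving out 1 library gave 3.93 to 9.06, 0.167 to 5.53, 0.440 to 0.719, 0.00697 to 0.0146 and 1.06 to 2.70%. The lowest of these came without the second N library, the second HPP library, the first NPP library, the first N library and the second MCF10A N library. The 5.53% came without the first H library. Such a fit has fewer samples; beyond that, and for the other settings, the cause was not tested. Of 270 named or listed genes past the threshold, 113 kept the call whichever of the 4 libraries was left out, while 137 lost it without the second N library and 49 in the fit of total mRNA libraries alone. Of 686 list medians recomputed, 31 moved by 0.2 or more. In 250 bases before the start alone, 8 of 9 motif shares moved, in a window with fewer bases.

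The treatments share replicate numbers, but the labels do not say that a number marks a culture or day shared by treatments, and the replicate differences of the total mRNA groups correlated between -0.187 and 0.282 over genes. Those of total and polysome libraries of one treatment, which share a number in their titles, correlated by 0.145, 0.0024, 0.348 and 0.107 in N, H, NPP and HPP. With a replicate block the percentages were 18.4, 7.0, 5.04, 0.0148 and 3.94%, and none of the 270 genes lost its call.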

Other observations

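Genes outside the lists also differed between HPP and each of the other 3 MDA-MB-231 groups; those named here were chosen after their values were seen, and the 3 comparisons share the HPP libraries. ORAI3, a subunit of store-operated calcium channels, had 8.0 and 6.65, 12.8 and 9.89 and 11.5 and 12.1 CPM in N, H and NPP against 23.6 and 21.6 CPM in HPP. EPOR, the erythropoietin receptor, had 4.70 and 4.95, 7.44 and 6.92 and 7.48 and 6.59 CPM against 12.2 and 12.1 CPM, and CCNA1, the testis-type cyclin A, 3.84 and 4.49, 5.89 and 6.61 and 5.75 and 8.12 CPM against 14.7 and 13.8 CPM. In each of these 3 genes both HPP libraries lay above all 6 other libraries, as in 7.43% of the genes tested. In the opposite direction, PNPT1, which degrades and imports RNA in mitochondria, had 85.1 and 81.5, 63.0 and 69.6 and 73.5 and 70.3 CPM in N, H and NPP against 45.6 and 42.4 CPM in HPP, and NAF1, an assembly factor of box H/ACA ribonucleoproteins and telomerase, 23.4 and 23.6, 20.7 and 23.8 and 19.2 and 20.0 CPM against 13.7 and 11.8 CPM, both HPP libraries lying below all 6 others, as in 10.1% of the genes tested. The adjusted p against N, H and NPP (edgeR) was 0.00012, 0.0098 and 0.012 for ORAI3, 0.00021, 0.018 and 0.016 for EPOR and 0.00012, 0.0073 and 0.011 for CCNA1. For PNPT1 it was 0.00071, 0.025 and 0.012 and for NAF1 0.0015, 0.0094 and 0.032. Most of the calls against H and NPP were lost with 1 library left out: of the 4 such fits, the call against H was kept in 4 by CCNA1, in 2 by NAF1 and in 1 by ORAI3, EPOR and PNPT1, and the call against NPP in 2 by CCNA1 and in none by the other 4 genes.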
